A study of Mus musculus with 2 samples.

Results

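Taste receptor genes were followed cell by cell in medullary thymic epithelium (mTECs), which displays proteins of other organs to maturing T cells. The family was taken as every gene of the count table named Tas1r or Tas2r followed by a number. It held 38 of 55487 genes, 3 Tas1r and 35 Tas2r. The cells came from wild-type C57BL/6J females aged 4 weeks injected into the peritoneum on 7 consecutive days with spermidine (15 mg/kg) dissolved in phosphate-buffered saline, PBS, or with PBS only, per the labels. Sorted mTEChi and post-Aire mTEClo cells of 2 spermidine samples (hashtags HT2 and HT3) and 2 PBS samples (HT4 and HT5) were pooled in 1 droplet run (10x Genomics 3' v3). The labels did not say that the samples of a treatment came from separate mice, so every p-value reflects only how far these hashed samples scatter, a scatter that may be technical.

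Type 2 taste receptors (Tas2r) are G protein-coupled receptors for bitter compounds, and each is encoded by a short gene with a single coding exon. Type 1 receptors act in pairs: Tas1r1 with Tas1r3 senses amino acids (umami), and Tas1r2 with Tas1r3 senses sugars. In taste cells both types signal through the G protein gustducin (Gnat3 with Gnb3 and Gng13), phospholipase C (Plcb2) and the cation channel Trpm5. Tuft cells, rare chemosensory cells of gut, airway and thymic medulla that depend on the transcription factor Pou2f3, use the same cascade, and those of the thymus are known for their bitter receptors and for the cytokine Il25.

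Counts of unique molecular identifiers (UMIs) were available for 4705 cells that 1 hashtag each assigned to a sample. Spermidine samples 1 and 2 held 1362 and 998 cells with 25548781 and 18148974 UMIs, and PBS samples 1 and 2 held 1343 and 1002 cells with 23357070 and 17855884 UMIs. Clustering without sample or treatment gave 16 clusters, of which all but cluster 12 (77 cells) were named "like" from marker lists, and none of the 38 members was among the 2000 genes that drove it. Clusters 2, 3 and 5 formed the tuft-like class, with 312 and 220 cells in the spermidine samples, against 461 and 287 cells in the PBS samples (22.9% and 22.04%, against 34.3% and 28.6% of cells). Tuft markers other than Ptprn2 stood far above their level in the other cells, with Trpm5 at 729 against 29.97 counts per UMI total scaled to 1000000 (CPM) and Pou2f3 at 510 against 44.2 CPM. Ptprn2 was alike in both, at 189 against 185 CPM. Hashtags HT6 and HT7, to which the labels give no sample, were also present, and 880 of the 4705 cells (18.7%) became doublets when both were added to the assignment. Several main results are therefore also given for this 6-hashtag assignment, a new assignment that gave 3739 cells to the 4 samples. Of these, 3603 kept the sample they had before.

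Of the Tas2r genes, 33 lay on mouse chromosome 6, Tas2r134 on chromosome 2 and Tas2r119 on chromosome 15. The Tas1r genes lay apart on chromosome 4, Tas1r1 and Tas1r3 at 152027914 to 152038568 and 155859268 to 155863362 and Tas1r2 at 139653538 to 139670280. With members less than 1 Mb apart counted as neighbours, chromosome 6 held a large gene cluster of 24 Tas2r genes between 131629823 and 133055816, a group of 3 (Tas2r137, Tas2r108, Tas2r138) from 40491233, a group of 5 (Tas2r139, Tas2r144, Tas2r143, Tas2r135, Tas2r126) from 42140936, and the lone Tas2r118 at 23969161 to 23970060. Positions are those of GENCODE M21 on GRCm38, the assembly that is also called mm10. Most Tas2r genes are annotated with almost no sequence after the coding part, at most 6 bases for 25 of 35, whereas the 3' method reads transcript ends. How many UMIs this costs was not tested. The coding sequences of Tas2r pairs were 51.7% identical in the median and 86.2% at most (Tas2r123 and Tas2r110), and 0 of 595 pairs passed 90%.

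Promoters are shown because Pou2f3, the factor that tuft cells depend on, belongs to the POU family, whose known recognition sequence is the octamer ATGCAAAT. Windows from 250 bases before to 50 bases after the annotated start were taken from RefSeq and matched 34 of the 38 members. The octamer, searched on both strands, stood in 7 of the 34 windows (20.6%), against 474 of 27025 windows (1.75%) over all genes. Of these, 6 belonged to the 9 chromosome 6 genes outside the large gene cluster (Tas2r118, Tas2r137, Tas2r108, Tas2r144, Tas2r135, Tas2r126), and only 1 of 20 in the large gene cluster held it (Tas2r107, at position -236 from the start). Starts taken from coding-only gene models may lie inside the transcript, so these windows need not hold the true promoter. The 3 octamer genes outside the large gene cluster that were seen in the most cells are printed first, and Tas2r105, the member with the most UMIs, has no octamer in its window. Capitals mark the octamer, which reads as its reverse complement on the gene's strand, and no motif match is a binding site by itself.
Tas2r118 (GRCm38.p6, chr6:23970011-23970310, minus strand): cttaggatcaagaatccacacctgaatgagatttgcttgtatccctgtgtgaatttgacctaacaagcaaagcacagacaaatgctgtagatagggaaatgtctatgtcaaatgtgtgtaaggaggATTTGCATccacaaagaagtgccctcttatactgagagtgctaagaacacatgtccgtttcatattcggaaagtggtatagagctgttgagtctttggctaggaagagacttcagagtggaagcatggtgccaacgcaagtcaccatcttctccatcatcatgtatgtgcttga
Tas2r137 (GRCm38.p6, chr6:40490988-40491287, plus strand): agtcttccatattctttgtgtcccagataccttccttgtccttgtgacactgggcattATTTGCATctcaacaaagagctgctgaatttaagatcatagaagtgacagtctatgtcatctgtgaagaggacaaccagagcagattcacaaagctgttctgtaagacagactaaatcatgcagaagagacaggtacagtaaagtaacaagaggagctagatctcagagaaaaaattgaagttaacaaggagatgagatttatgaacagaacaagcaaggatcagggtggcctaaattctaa
Tas2r108 (GRCm38.p6, chr6:40493342-40493641, plus strand): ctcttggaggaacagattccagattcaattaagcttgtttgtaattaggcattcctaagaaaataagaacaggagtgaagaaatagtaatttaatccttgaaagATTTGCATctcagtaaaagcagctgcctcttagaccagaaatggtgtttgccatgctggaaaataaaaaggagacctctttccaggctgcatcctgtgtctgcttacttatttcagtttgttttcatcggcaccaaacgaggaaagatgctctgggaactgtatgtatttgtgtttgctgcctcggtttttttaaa
Tas2r105 (GRCm38.p6, chr6:131687414-131687713, minus strand): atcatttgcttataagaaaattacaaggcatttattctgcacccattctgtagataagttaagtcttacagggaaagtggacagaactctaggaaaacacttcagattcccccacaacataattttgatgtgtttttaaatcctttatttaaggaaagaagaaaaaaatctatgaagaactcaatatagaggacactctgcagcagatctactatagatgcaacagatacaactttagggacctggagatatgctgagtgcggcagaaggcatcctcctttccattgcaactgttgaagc

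In these windows the octamer began at position -124 from the start of Tas2r118, -192 from that of Tas2r137 and -146 from that of Tas2r108. The AP-1 motif TGANTCA (both strands) was found in 4 of 34 member windows (11.8%), against 7.93% of all windows. An alternating purine-pyrimidine run of at least 12 bases, a sequence type that can adopt the Z-DNA form, was found in 1 member window (2.94%, Tas2r103), against 9.26% of all windows. A CA repeat of 6 units was found in 0 of 34, against 0.932% of all windows.

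Taste receptor RNA was concentrated in tuft-like cells, and within them in 1 cluster. Of 6049 member UMIs in the 4705 cells, 5360 (88.6%) fell in tuft-like cells, which were 27.2% of cells, and 3640 (60.2%) fell in tuft-like cluster 5, which was 6.06% of cells. UMIs were seen for 37 members in assigned cells, and Tas2r139 had none. The 285 cells of cluster 5 held 6.23 different taste receptor genes each on average (median 5), and 96.5% of them had at least 1 (95% Wilson interval 93.7 to 98.1, for counting error only). Tuft-like clusters 2 and 3, with 528 and 467 cells, held 1.22 and 1.23 per cell, and 60.8% and 59.96% of their cells had at least 1.

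These numbers depend on depth, since cells of cluster 5 had a median of 16798 UMIs and those of clusters 2 and 3 of 11848 and 11457. After each cell was thinned to 5000 UMIs, cluster 5 kept 2.71 members per cell, against 0.566 in cluster 2 and 0.641 in cluster 3. The share of cells with a member was then 83.9% in cluster 5, against 41.1% and 41.0% in the other tuft-like clusters. Thymocyte-like and myeloid-like cells, which should lack these receptors, gave a background level: 7 of 205 cells (3.41%, median 7510 UMIs), and 2.10% of 143 cells after thinning to the same depth. In the 6-hashtag assignment it was 4 of 164 cells (2.44%). The parts of free RNA and of doublets in this background were not tested. The order of the tuft-like clusters thus stayed the same at matched depth, and the samples' values of clusters 2 and 3 overlapped.

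**Figure D1:**
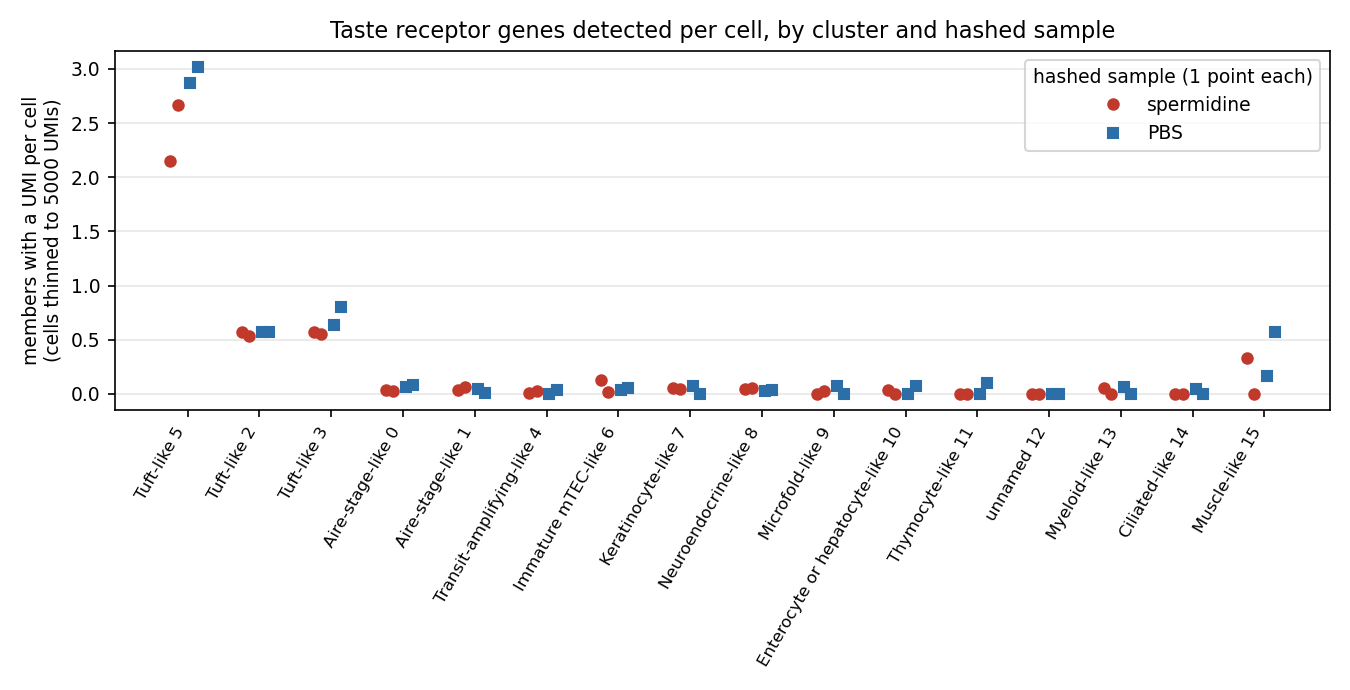
Taste receptor genes with a UMI per cell, on the vertical axis, after thinning each cell to 5000 UMIs, for each cluster on the horizontal axis and each hashed sample (1 point; red circles spermidine, blue squares PBS). Cluster 5 stands at 2.15 to 3.02 genes per cell in the 4 samples, and the other tuft-like clusters lie between 0.532 and 0.805.

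Each of the 34 detected Tas2r genes was found in a larger share of cells in cluster 5 than in both other tuft-like clusters. The receptors did not enter the clustering, but Gnat3, Rgs21 and Tas2r105 were among the leading genes of cluster 5, so this describes the cluster and is no test. Tas2r105, a receptor for cycloheximide in the mouse, was found in 56.1% of cluster 5 cells and gave 24.7% of the cluster's Tas2r UMIs. The median Tas2r gene was found in 9.12% of cluster 5 cells. Genes of the large gene cluster gave 87.2% of these UMIs, and at least 1 of the 18 genes in its part from 132656953 to 133055816 was seen in 79.3% of cluster 5 cells. The group of 5 from 42140936 was the weakest of the multigene groups, with a UMI in 8.77% of cluster 5 cells.

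The Tas1r genes behaved differently from one another. Tas1r1 was found in 51.6% of cluster 5 cells, against 11.6% of the other tuft-like cells, much as the Tas2r genes were. Tas1r3, the partner of both other Tas1r proteins, was found in 114 of 285 cluster 5 cells (40%) and 31.5% of the other tuft-like cells, a smaller gap than that of Tas1r1. Of its 571 UMIs in tuft-like cells, 27.1% lay in cluster 5, against 60.04% of the 463 Tas1r1 UMIs. Tas1r2, needed for the sweet receptor, had only 2 UMIs in tuft-like cells and none in cluster 5, and 18 of its 21 UMIs lay in 11 Aire-stage-like cells. In the annotation Tas1r2 overlaps another gene, Gm21969, on the same strand, and Tas1r3 overlaps Dvl1 on the other strand. Whether these overlaps changed their counts was not tested. Cells with both Tas1r1 and Tas1r3 numbered 112 among tuft-like cells, against 88.7 that the product of the shares within each sample gives. Within cluster 5 the numbers were 69 and 59.0.

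**Figure D2:**
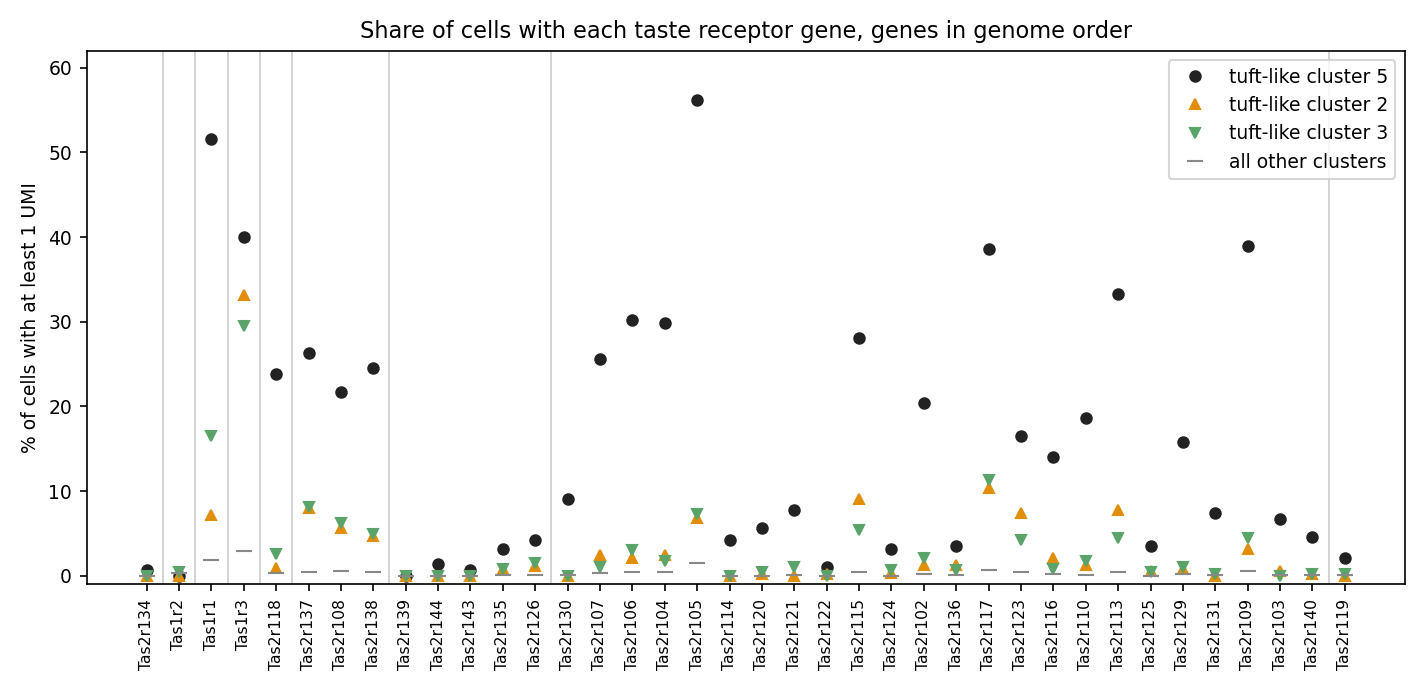
Share of cells with at least 1 UMI, in percent on the vertical axis, for the 38 members in genome order, with vertical lines between gene clusters. Black circles (tuft-like cluster 5) lie above the orange and green symbols (clusters 2 and 3) for every detected Tas2r gene, with Tas2r105 highest at 56.1%, whereas Tas1r3 is at 40% in cluster 5 and near that level in clusters 2 (33.1%) and 3 (29.6%).

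Cells of cluster 5 carried several bitter receptors at once rather than 1. Among the 110 cells of cluster 5 with at least 10 Tas2r UMIs, a cell held a median of 9 different Tas2r genes (3 to 19). The leading receptor gave a median of 29.9% of a cell's Tas2r UMIs (12% to 81.8%), and more than 50% in 9 of the 110 cells. Tas2r105 was the leading receptor, alone or tied, in 71 of these cells (64.5%), Tas2r109 in 16, Tas2r113 in 13 and Tas2r107 in 5. The cell with the most members held 21, with 55 member UMIs among 37655, and was a doublet once HT6 and HT7 were added; without such doublets the highest number was 18.

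The number of receptors varied among cells more than independent detection at each gene's share would give. In thinned cells of cluster 5 the standard deviation (SD) of the number was 2.32, against 1.5 from the product of shares, and 16.1% of cells had none, against 5.43%. In the other tuft-like clusters the SD was 0.929, against 0.749. In the 6-hashtag assignment the cluster 5 values were 2.36 against 1.54.

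**Figure D3:**
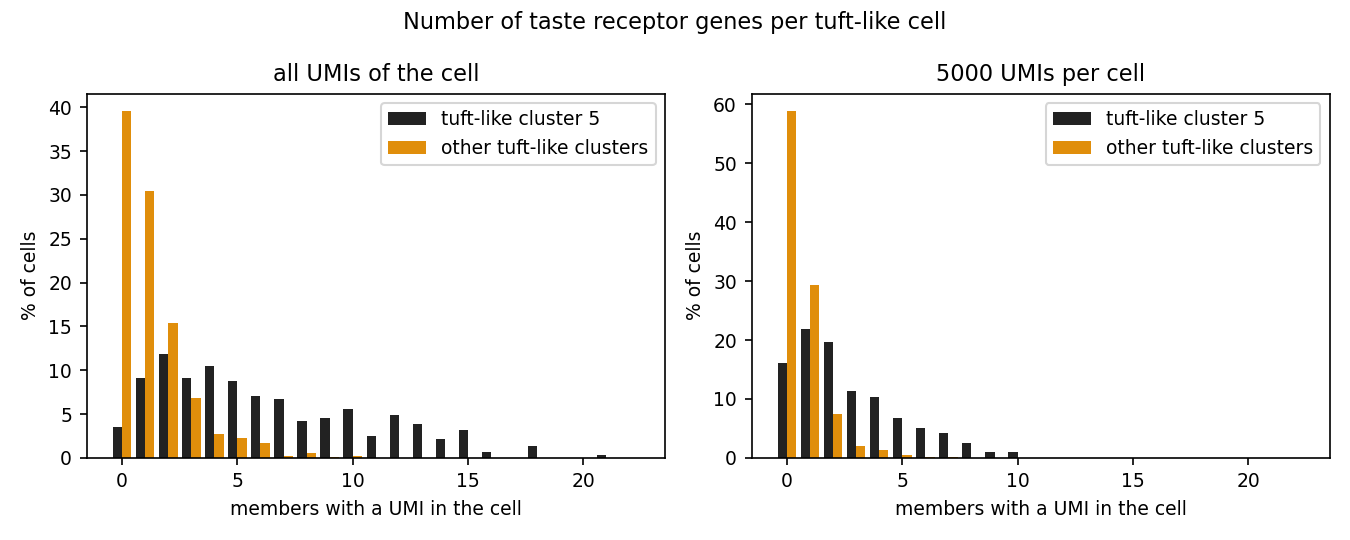
Percent of cells, on the vertical axis, by the number of taste receptor genes with a UMI, on the horizontal axis, with all UMIs of a cell (left) and at 5000 UMIs per cell (right), for cluster 5 (black) and the other tuft-like clusters (orange). Cluster 5 spreads from 0 to 21 genes, with a median of 5, whereas the other tuft-like cells reach 10 and have a median of 1.

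Pairs of receptors were found together more often than their shares give, and in the median more so for members of the same gene cluster. Members seen in at least 20 thinned tuft-like cells formed 136 pairs, 58 within a gene cluster and 78 between gene clusters or chromosomes. The ratio of cells with both to the number from the product of shares was 3.31 in the median of pairs within a gene cluster and 1.99 in the other pairs, and 125 of the 136 ratios passed 1. Since the tuft-like clusters differ in level, the ratio was also taken within cluster 5. There the medians were 1.43 over 48 pairs and 1.17 over 72 pairs, and 89 of 120 ratios passed 1. The 48 pairs came from the large gene cluster and from the group of Tas2r137, Tas2r108 and Tas2r138. That group's ratios were 0.850, 0.362 and 1.12, all below 1.17, so the pairs that raise the median of the 48 belong to the large gene cluster. The 72 other pairs include those of Tas1r1 and Tas1r3 with Tas2r genes, as do the 78 in tuft-like cells. In cluster 5 the ratios of these Tas1r pairs ran from 0.293 to 2.08. No pair within a gene cluster holds a Tas1r gene, so the 2 medians differ in more than the gene cluster. How far the Tas1r pairs lower the second median was not tested. The pairs share genes and cells, so no p is given. Within single samples, members seen in at least 5 cells were used instead of 20. There the difference of the medians in tuft-like cells was 0.865 and 0.984 in the spermidine samples, against 1.42 and 1.53 in the PBS samples. These rest on 39 and 39, against 81 and 81 pairs within a gene cluster. The treatments thus differ in the pairs used, and the values do not compare like with like.

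Neighbouring genes supplied the 2 highest ratios in tuft-like cells, but close neighbours did not all have high ratios. Tas2r106 and Tas2r104, 5.95 kb apart, shared 18 thinned tuft-like cells, against 1.92 from their shares, a ratio of 9.35, and in cluster 5 the ratio was 3.02 (15 cells). Tas2r104 and Tas2r105, 0.788 kb apart on the minus strand, shared 35 cells (ratio 6.75, and 2.42 in cluster 5). These genes have distinct coding sequences (74.0% identical for the second pair), and how the deposited counts handled reads matching more than 1 gene is not given in the sources used here, so a split of reads between similar genes was not tested. Genes farther apart followed: Tas2r110 and Tas2r109, 111 kb apart, had a ratio of 6.47, and 2.60 in cluster 5. In cluster 5, Tas2r137 and Tas2r108, 1.22 kb apart, had a ratio of 0.850. Tas2r107 and Tas2r106, 17.8 kb apart, had 0.886 there. Over 58 pairs the rank correlation of ratio with distance was -0.0108 (-0.231 over 48 pairs in cluster 5). The rank correlation with coding identity over Tas2r pairs was 0.202 in tuft-like cells and 0.266 in cluster 5 (91 pairs). The pair with the lowest ratio was Tas1r3 with Tas2r118 (0.431), on different chromosomes.

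**Figure D4:**
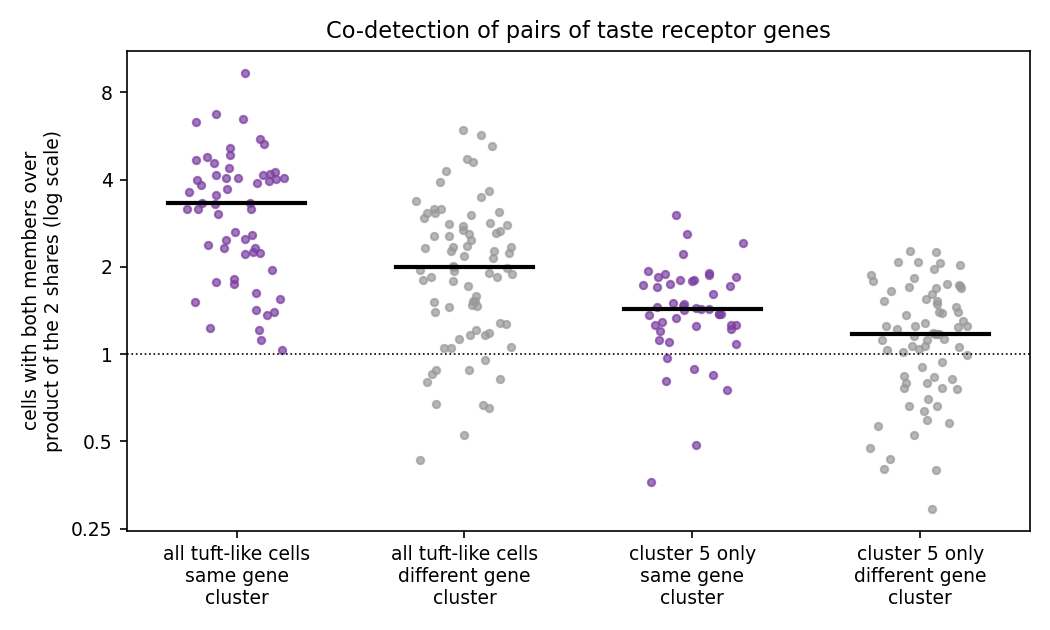
Each point is a pair of taste receptor genes, and the vertical axis, on a log scale, is the number of thinned cells with both over the number from the product of their shares, for all tuft-like cells (left pair of columns) and cluster 5 (right pair). Black bars are medians: 3.31 and 1.99 for pairs of the same and of different gene clusters in tuft-like cells, and 1.43 and 1.17 in cluster 5. Pairs with a Tas1r gene fall only among those of different gene clusters.

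Genes of the cascade followed the receptors to differing degrees. Gustducin's alpha subunit Gnat3 stood at 4030 CPM in cluster 5, 682 in cluster 2 and 925 in cluster 3, and Gnb3 at 1947, 491 and 695 CPM. Rgs21, a regulator of G protein signalling known from taste cells, was nearly limited to cluster 5, with 657 CPM against 14.6 and 33.0. The steps after the G protein were more even across the 3 clusters: Plcb2 at 628, 426 and 466 CPM and Trpm5 at 652, 871 and 626 CPM. Pou2f3 was even as well, at 529, 471 and 542 CPM, while the tuft kinase gene Dclk1 was lowest in cluster 5 (1442, against 4773 and 2465 CPM). Over 38 sums of 11 classes by sample, the genes whose log2(CPM + 1) was most correlated with that of the summed Tas2r genes were Gnat3 (Pearson's r = 0.909), Sema5a (0.889), A630073D07Rik (0.883), 1700003M07Rik, Dclk1, Gng13, AU019990, Gm18690, Gm4952 and Rbm15b (the last 0.875). The sums share cells' depth and class, and the correlation mostly sets tuft-like against other classes.

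2 of these 10 genes, A630073D07Rik and the pseudogene Gm18690, lie inside the large gene cluster. The region holds 61 genes of the count table, of which 6 are protein coding and not members, and A630073D07Rik (132625111 to 132651526) was the only one of the 6 with UMIs in cluster 5. It had 4308 UMIs there, in 86.7% of cells, more than the 2796 UMIs of the 24 receptor genes of the region together. Its level in cluster 5 was 796 and 1000 CPM in the spermidine samples, against 727 and 877 CPM in the PBS samples, so the groups overlapped. The receptor pseudogene Tas2r142-ps5 had 464 UMIs in cluster 5, in 47.7% of cells, and Gm18690 had 205.

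Outside the tuft-like class, receptors were rare. Of the other 3425 cells, 9.26% had at least 1 member (0.139 members per cell, median 18358 UMIs), and 3.20% had at least 1 after thinning, against 2.10% in the thymocyte-like and myeloid-like cells. In the 1376 Aire-stage-like cells, named from a marker list that includes the transcriptional regulator Aire, 11.05% had at least 1, and 3.86% after thinning. Of their 303 member UMIs, Tas1r1 gave 48 in 34 cells, Tas1r3 46 in 39 cells and Tas2r108 12 in 11 cells, so these were spread over many cells. Others were more concentrated, with 39 Tas2r105 UMIs in 19 cells and 22 Tas2r107 UMIs in 6 cells, 12 of them in 1 cell. Of the 12 cells outside the tuft-like class with at least 10 member UMIs, 7 were doublets in the 6-hashtag assignment. In the 6-hashtag assignment the member UMIs outside the tuft-like class fell from 689 in 3425 cells to 357 in 2744 cells. Then 7.73% of these cells had a member, and 2.53% after thinning. In Aire-stage-like cells the UMIs fell from 303 in 1376 cells to 174 in 1094 cells, of which 9.14% had a member, and 3.12% after thinning. The part of doublets and free RNA in the remaining UMIs was not tested.

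The muscle-like cluster, with 33 cells, stood apart from the other classes. In it 39.4% of cells had a member (median 26721 UMIs), 18.2% after thinning (95% Wilson interval 8.61 to 34.4), and 45 of its 83 member UMIs came from 1 PBS cell that was a 6-hashtag doublet. Without that cell 37.5% still had a member, at 0.719 per cell, and Tas1r3 led with 16 UMIs in 8 cells. With 9 and 5 such cells in the spermidine samples, against 12 and 7 in the PBS samples, treatments were not compared there.

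Spermidine and PBS samples were compared first by the number of receptors in tuft-like cells thinned to 5000 UMIs. A tuft-like cell held 0.915 and 1.05 members in the spermidine samples, against 1.19 and 1.21 in the PBS samples (0.982 ± 0.0954 against 1.20 ± 0.0149, SD, n = 2 each), a difference of -0.217. Thinning kept 282 and 201 tuft-like cells of the spermidine samples, against 429 and 262 of the PBS samples, and with all UMIs and cells the numbers were 1.85 and 2.07, against 2.54 and 2.76. Both spermidine samples were below both PBS samples at either depth, and a score over chosen members gets no test. The share of tuft-like cells with at least 1 member overlapped between the groups, at 50% and 50.7% with spermidine, against 52.9% and 50.4% with PBS. It did not overlap, and was lower with spermidine, in other settings: 64.1% and 67.3%, against 72.0% and 68.3%, with all UMIs, and 25% and 26.3%, against 31.3% and 33.5%, at 2000 UMIs. With at least 2 UMIs of a member required it was 29.8% and 29.1%, against 36.9% and 34.8%, and in the 6-hashtag assignment 51.7% and 50.7%, against 52.2% and 52.7%. Among cells with at least 1, those with 2 or more made up 39.7% and 42.2% in the spermidine samples, against 48.0% and 53.0% in the PBS samples. This separation was lost in some settings: at 2000 UMIs the values were 24.7% and 33.3%, against 31.0% and 33.7%, and with at least 2 UMIs required 38.7% and 51.6%, against 44.1% and 56%. With all UMIs they were 62% and 56.8%, against 62.05% and 67.9%, almost touching.

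Within cluster 5 the thinned number was 2.15 and 2.67 in the spermidine samples, against 2.87 and 3.02 in the PBS samples, and with all UMIs it was 4.98 and 5.50, against 6.53 and 7.48. In cluster 2 it was 0.574 and 0.532, against 0.572 and 0.574, and in cluster 3 it was 0.575 and 0.554, against 0.634 and 0.805. At this depth the groups overlapped in cluster 2 and did not in clusters 3 and 5, but with all UMIs they did not overlap in cluster 2 either, at 1.03 and 1.14, against 1.25 and 1.43. Clusters 2 and 3 as 1 group overlapped in the 6-hashtag assignment at matched depth, at 0.616 and 0.496, against 0.574 and 0.729. Whether the clusters differ in their response was not tested. Cluster 5 made up 19.9% and 21.8% of tuft-like cells with spermidine, against 24.5% and 21.6% with PBS, so its share overlapped. Median depth in cluster 5 was alike, at 16831 and 16868 UMIs in the spermidine samples, against 16827 and 16498 in the PBS samples. The summed level of the tuft marker list in tuft-like cells moved with the receptors, at 18210 and 19121 CPM with spermidine, against 21012 and 20319 CPM with PBS, and 11 of 20 marker lists did not overlap between the treatments in these cells. Of them 8 were lower with spermidine (tuft, goblet or secretory, myeloid, muscle, keratinocyte, ionocyte, cortical epithelium and fibroblast), among them goblet or secretory at 1261 and 1450 CPM, against 1651 and 1970 CPM, and myeloid at 1228 and 1414 CPM, against 1529 and 1584 CPM. The other 3 were higher: neuroendocrine at 1233 and 1121 CPM, against 794 and 870 CPM, immature mTEC at 446 and 398 CPM, against 345 and 391 CPM, and ciliated at 338 and 274 CPM, against 254 and 261 CPM. Of all single genes tested in tuft-like cells, 21.3% were lower and 20.4% higher in both spermidine samples. The part of the marker lists in the result was not tested. In the 6-hashtag assignment the difference in members per tuft-like cell was -0.298.

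Gene by gene, edgeR's quasi-likelihood test with Benjamini-Hochberg adjustment at 0.05 called none of the members in tuft-like cells. The test covered 13982 genes and called 7 of them (0.0501%), all higher with spermidine, whereas 0 of the 20 members tested were called by edgeR or by DESeq2 (which gave Tas2r110 no adjusted p in these cells), and 4 had an unadjusted p under 0.05. The other 18 members did not pass the filter of low counts. That filter asks for enough counts in only as many samples as 1 treatment has. A member can thus pass through the PBS samples alone, and a lower value with spermidine is then set by the filter. Of the 20, 18 had a log2 fold change below 0 (50.2% of all genes), with a median of -0.31, against -0.0013 over all genes. Both spermidine samples were below both PBS samples for 9 of the 20 members, against 21.3% of all genes tested, and above for 0, against 20.4%. Members were often detected in the same cells. Counts of members, here and below, are therefore not independent observations, and they were not tested. In cluster 5 the test called 3 of 10160 genes (0.0295%; 0.0197% higher and 0.00984% lower with spermidine) and 0 of 19 members by either tool, with 3 members at an unadjusted p under 0.05. There 8 of 19 members were lower in both spermidine samples (19.7% of all genes) and 1, Tas2r108, was higher in both (19.7%), and 16 of 19 had a log2 fold change below 0 (49.3% of all genes), with a median of -0.40.

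Tas2r110 had the lowest adjusted p of the members in both fits. It stood at 2.14 and 3.12 CPM in tuft-like cells of the spermidine samples, against 7.01 and 9.15 CPM in the PBS samples, from 9 and 10, against 50 and 39 UMIs. The groups did not overlap, and the log2 fold change was -1.62 (SE 0.37, edgeR with Benjamini-Hochberg adjusted p = 0.189). In cluster 5 it stood at 4.68 and 9.80 CPM, against 20.3 and 29.6 CPM, a log2 fold change of -1.75 (SE 0.43, edgeR adjusted p = 0.258). The call depended on the processing: Tas2r110 was the 1 member of 37 in tuft-like cells and of 36 in cluster 5 to pass without the filter of low counts (edgeR adjusted p = 0.00227 and 0.00349), where 0.800% and 0.425% of all genes were called lower. In cluster 5 it also passed without spermidine sample 2 (edgeR adjusted p = 0.00492) and without PBS sample 1 (0.0206), where 0.601% and 0.687% of all genes were called lower. Over the alternatives that gave one, its adjusted p ran from 0.00227 to 0.498 in tuft-like cells and from 0.00349 to 1 in cluster 5.

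The most abundant receptor, Tas2r105, had 43.1 and 53.0 CPM in tuft-like cells of the spermidine samples, against 50.4 and 54.9 CPM in the PBS samples. These levels overlapped, with a log2 fold change of -0.14 (SE 0.12). The share of cluster 5 cells with a Tas2r105 UMI did not overlap, at 43.5% and 41.7% with spermidine, against 62.8% and 67.7% with PBS, and at matched depth it was 32.8% and 31.3%, against 38.7% and 43.3%. Such shares were lower in both spermidine samples for 13 of the 19 members tested, against 17.9% of all genes tested in cluster 5, for 10 of the 19, against 15.0%, in the 6-hashtag assignment and for 6 of the 19, against 20.3%, after thinning. No member of the 19 was higher in both with all UMIs, against 15.8% of all genes, and 1 was in the 6-hashtag assignment, against 20.6%, and 1 after thinning, against 15.4%.

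Other members of the large gene cluster were near or below their PBS level. Tas2r109 had 20.002 and 18.1 CPM in tuft-like cells with spermidine, against 22.1 and 26.0 CPM with PBS. Tas2r117 had 17.4 and 14.0 CPM, against 19.2 and 19.9 CPM, and Tas2r107 had 7.62 and 10.3 CPM, against 10.9 and 13.1 CPM. For all 3 the groups did not overlap, with log2 fold changes between -0.43 and -0.30 and edgeR adjusted p-values of at least 0.526 after Benjamini-Hochberg adjustment. Tas2r106 had 7.38 and 8.41 CPM with spermidine, against 10.9 and 12.9 CPM with PBS (log2 fold change -0.59, SE 0.24, edgeR adjusted p = 0.428). Tas2r102 had 3.57 and 5.61 CPM, against 6.31 and 10.6 CPM (-0.86, SE 0.38, edgeR adjusted p = 0.459). Tas2r123 likewise did not overlap, at 5.24 and 6.54 CPM, against 7.15 and 12.2 CPM. Another 3 abundant members of the large gene cluster overlapped: Tas2r104 at 6.91 and 9.97 CPM, against 9.95 and 14.5 CPM, Tas2r113 at 17.1 and 23.99 CPM, against 18.5 and 21.6 CPM, and Tas2r115 at 9.76 and 8.72 CPM, against 10.5 and 9.62 CPM.

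Members outside the large gene cluster varied in direction. Tas2r138, the mouse counterpart of the human receptor for phenylthiocarbamide, had 4.76 and 6.54 CPM in tuft-like cells with spermidine, against 8.55 and 9.86 CPM with PBS (log2 fold change -0.71, SE 0.29, edgeR adjusted p = 0.429), without overlap. Its neighbour Tas2r137 had 10.2 and 7.79 CPM, against 10.9 and 10.3 CPM, also without overlap. Tas2r108, a receptor for denatonium in the mouse, ran the other way, at 10.2 and 7.48 CPM, against 6.45 and 8.21 CPM, with overlap. Tas1r1 had 25.5 and 20.6 CPM, against 26.8 and 23.2 CPM, and Tas1r3 had 26.4 and 32.4 CPM, against 33.8 and 27.0 CPM. Both overlapped, and 1 cell gave 25.2% of the Tas1r1 UMIs in tuft-like cells of spermidine sample 1. Tas1r2 had 1 and 0 UMIs, against 0 and 1, too few for a comparison. Summed over the family, Tas2r genes had 192 and 212 CPM with spermidine, against 230 and 280 CPM with PBS (202 ± 14.7 against 255 ± 35.6, SD, n = 2 each), and Tas1r genes had 52.1 and 53.0, against 60.5 and 50.5 CPM.

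**Figure D5:**
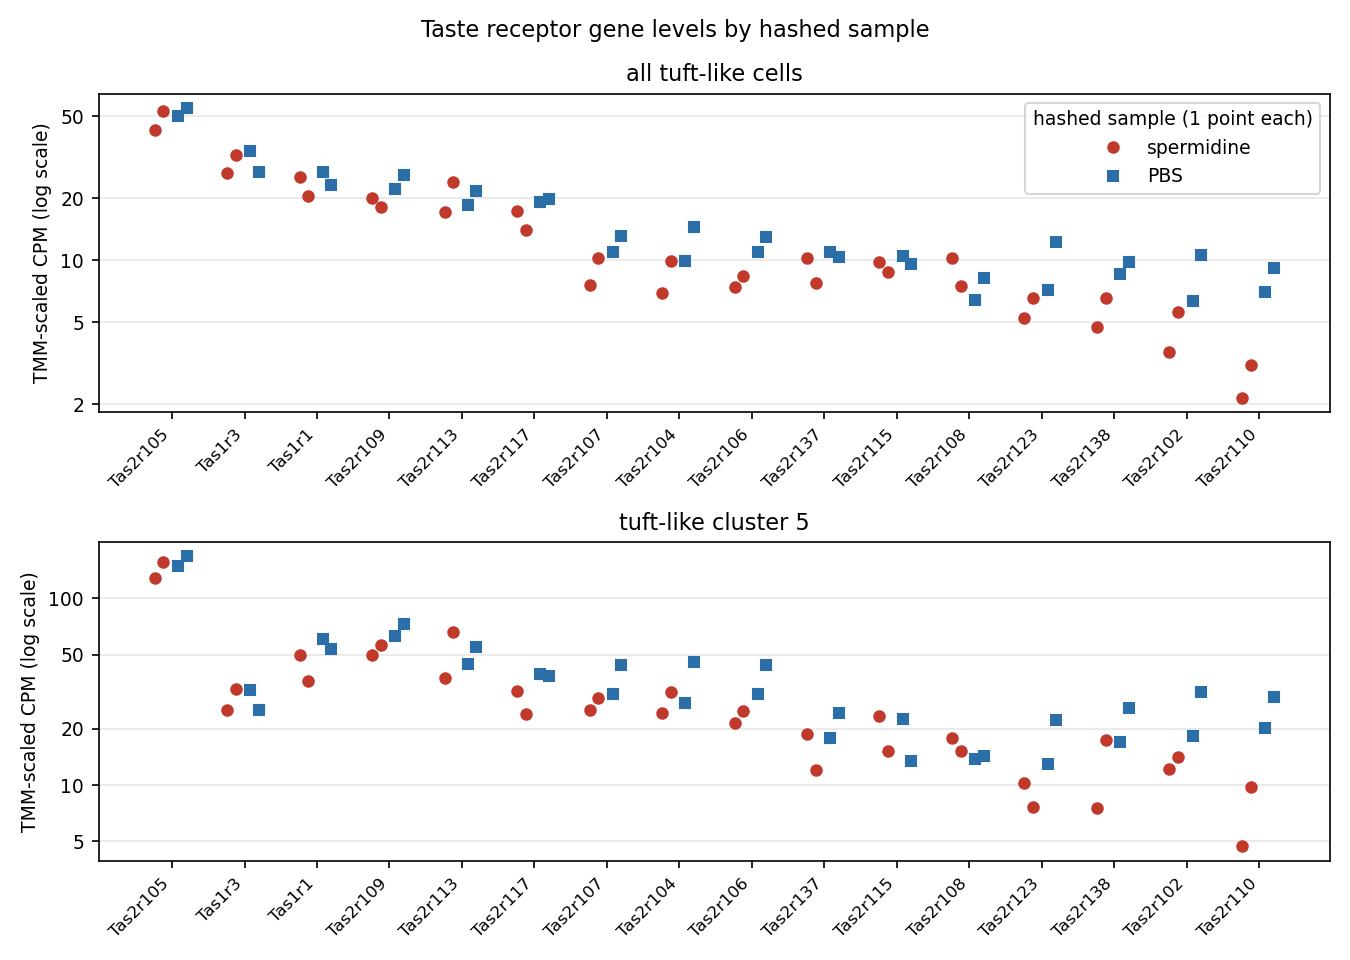
TMM-scaled CPM on a log scale, on the vertical axis, of the 16 most abundant or once-called members, on the horizontal axis, in all tuft-like cells (top) and cluster 5 (bottom), with 1 point per hashed sample (red circles spermidine, blue squares PBS). In tuft-like cells 9 of the 16 have both red circles below both blue squares, the gap is widest for Tas2r110 (2.14 and 3.12 against 7.01 and 9.15 CPM in tuft-like cells), and Tas2r108 runs the other way. Of all genes tested in these cells, 21.3% were lower in both spermidine samples. Tas2r102, Tas2r110, Tas2r123 and Tas2r138 are shown only because a fit of this contrast called them, so the count is no test.

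Lists of related genes gave no calls either. Of 15 tested taste transduction genes, 12 tested tuft regulators and 17 tested tuft effectors in tuft-like cells, none was called by edgeR. Both spermidine samples were lower for 7, 6 and 8 of them, against 21.3% of all genes, and higher for 0, 1 and 3, against 20.4%. The lowest adjusted p-values were those of Il25 (log2 fold change -0.61, edgeR with Benjamini-Hochberg adjusted p = 0.0611), the tuft regulator Hmx3 (-0.56, 0.110) and Rgs21 (-0.46, 0.182). Gnat3 had a log2 fold change of -0.28 (edgeR adjusted p = 0.285).

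In Aire-stage-like cells the family was at the level of a few UMIs per gene. Summed Tas2r genes had 7.16 and 6.94 CPM in the spermidine samples, against 6.96 and 5.26 CPM in the PBS samples. Of 18725 genes tested 0 were called by edgeR (0%), with 1324 at an unadjusted p under 0.05 and 89 called by DESeq2, and only the members Tas1r1 and Tas2r105 passed the filter. Tas1r1 had 2.23 and 0.886 CPM with spermidine, against 1.65 and 1.63 CPM with PBS, and Tas2r105 had 1.12 and 2.21, against 1.65 and 0.544 CPM. Both overlapped between treatments. In the 6-hashtag assignment 0 members passed the filter. With all UMIs, members per cell overlapped, at 0.161 and 0.123, against 0.162 and 0.150. In the 6-hashtag assignment they were higher in both spermidine samples, at 0.132 and 0.119, against 0.0962 and 0.106. After thinning they were lower in both, at 0.0373 and 0.0462, against 0.0576 and 0.0496. Thinned cells of the 6-hashtag assignment overlapped, at 0.0324 and 0.0431, against 0.0387 and 0.0529.

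Over all assigned cells, where the share of tuft-like cells enters each value, all 22 members tested were lower in both spermidine samples (26.3% of all 22665 genes tested, with 25.6% higher in both), and had log2 fold changes below 0 (49.1% of all genes), with a median log2 fold change of -0.92. None was called: edgeR called 0 genes (0%), with 4164 at an unadjusted p under 0.05, 15 of them members, and DESeq2 called 862 genes and 0 members. Without the filter of low counts edgeR called 3186 of 38648 genes, 3.30% of all as lower with spermidine, and 9 of the 37 members tested, all lower. With the filter, weak members such as Tas2r121 and Tas2r131 may be among the 22 through the PBS samples alone. In tuft-like cells Tas2r121 had 6 and 5 UMIs with spermidine, against 12 and 18 with PBS. Tas2r131 had 8 and 5, against 14 and 11. For such members being lower was set by the filter. Summed Tas2r genes had 37.5 and 42.6 CPM with spermidine, against 73.6 and 73.0 CPM with PBS. In such sums fewer tuft-like cells and less receptor RNA per cell cannot be told apart, and the tuft-like share was 22.9% and 22.04%, against 34.3% and 28.6%. Sorting and pooling can set these shares.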

How the data were processed

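The deposited matrix holds raw UMI counts for each barcode, of genes and of hashtags. Per the file headers, Cell Ranger 7.1.0 produced it, and the submitters' processing notes name bcl2fastq, Seurat and mm10. How reads matching more than 1 gene were counted is not given in the sources used here. Of 12139 barcodes, 8534 had at least 1000 UMIs, 500 genes and under 15% mitochondrial UMIs. HTODemux (Seurat 5.3.0, quantile 0.99) assigned 4705 to the 4 labelled hashtags and left out 1001 doublets and 2828 negatives; no doublet caller on RNA was used. Of 15 hashtags, 2 without a sample label (HT6, HT7) were abundant. Cells were clustered in scanpy 1.11.5 (2000 variable genes, 30 components, 15 neighbours, Leiden resolution 1), with cells per sample and UMIs as in the text.

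Counts summed per sample were tested in edgeR 4.0.16 (R 4.3.3; TMM, filterByExpr minimum count 10 and total 15, Benjamini-Hochberg at 0.05), with DESeq2 1.42.0 as an alternative, after a check on simulated data. CPM of members by sample used TMM-scaled totals, and CPM of clusters, marker lists and neighbouring genes used plain UMI totals; a 3' count is not divided by gene length. Shares over all genes after thinning came from a random draw of their own. The members and lists were chosen with earlier results of these data known. Members named in full were the 3 Tas1r, the 12 with the highest mean CPM in tuft-like cells and any called in a fit; for others, the genes most alike, the lists and singled-out pairs or cells are given. The co-detection within cluster 5, the shares by sample and the locus genes were chosen after seeing the data. Same-numbered samples did not deviate together. Alternatives were other normalization, filter, thinning, hashtags and clustering, and leaving out each sample.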

Additional observations from a re-analysis of the deposited data

Results flagged for a closer look

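HT6 and HT7, to which the labels give no sample, had 3822308 and 1560870 hashtag UMIs in cells that passed the filters, against 1954844 to 4192468 for the labelled hashtags, and 2317 of the 2828 negatives carried one of them.

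In Aire-stage-like cluster 1 the summed Tas2r level ran opposite to that in tuft-like cluster 5, with 5.96 and 9.84 CPM in the spermidine samples, against 2.71 and 3.31 CPM in the PBS samples (41 and 40, against 7 and 9 UMIs), a difference of 4.894 CPM. In each spermidine sample 1 cell held at least 10 member UMIs, 12 of 1 receptor in sample 1, in a 6-hashtag doublet, and 29 in sample 2. Without these cells, left out after seeing the data, the groups overlapped, at 4.24 and 2.97 CPM, against 2.71 and 3.31 CPM. In the 6-hashtag assignment they did not, at 3.85 and 10.67 CPM, against 1.19 and 1.90 CPM. Aire-stage-like cluster 0 overlapped, at 9.32 and 2.60 CPM, against 10.83 and 7.09 CPM.

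In the neuroendocrine-like cluster 8 the thinned number of members per cell was likewise opposite, at 0.0441 and 0.0513, against 0.0297 and 0.0385, a difference of 0.01362. It rests on 3 and 2 detections in 68 and 39 cells, against 3 and 2 in 101 and 52 cells, and with all UMIs the groups overlapped, at 0.157 and 0.293, against 0.120 and 0.226. Neither difference between clusters was tested.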

How the results depend on the processing

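Genes called in tuft-like cells numbered 7, and 39 with DESeq2, 517 without the filter of low counts, 39 with the replicate block, 19 with HT6 and HT7 added and 54 to 238 with 1 sample left out; in cluster 5 they numbered 3, and 8, 233, 13 with the replicate block and 89 to 177. In Aire-stage-like cells 0 became 89 with DESeq2, 2 without the filter and 0 to 1, and over all cells 0 became 862, 3186 and 0 to 651. Replicate numbers did not pair the samples (correlation of deviations 0.010 in tuft-like cells and -0.065 in cluster 5), and the replicate block gave 0 calls in Aire-stage-like cells and over all cells. With 1 sample left out, the lone sample is assumed to vary like the others.

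Members per tuft-like cell differed by -0.217, and by -0.298 with 6 hashtags, -0.690 without thinning, -0.141 at 2000 UMIs and -0.284 to -0.150 with 1 sample left out. The share with a member differed by -1.27 points, by -4.47 without thinning, -6.73 at 2000 UMIs, -6.41 for at least 2 UMIs and -2.54 to -0.0085; the share with 2 or more by -9.59, and by -14.1 with 6 hashtags, -5.57, -3.33, -4.92 and -12.1 to -7.08. The share over all cells differed by -5.98, by -7.74 without thinning and -7.64 to -4.31. The summed Tas2r level had a log2 ratio of -0.34 (-0.47 to -0.19). The co-detection difference of 1.31 was 0.315 within each cluster and sample, 0.256 within cluster 5, 0.515 there with 6 hashtags, 0.301 there without thinning and 0.660 (without PBS sample 1) to 1.42 with 1 sample left out.

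Log2 fold changes in tuft-like cells that changed sign were those of Tas1r1 (-0.29 to 0.016 with 1 sample left out, positive without spermidine sample 2, and 0.14 with 6 hashtags), Tas1r3 (-0.22 to 0.11, positive without spermidine sample 1, 0.072, or PBS sample 1), Tas2r105 (-0.28 to 0.016, positive without spermidine sample 1) and Tas2r113 (-0.21 to 0.27, negative without spermidine sample 2 or PBS sample 1, -0.087, and -0.13 with 6 hashtags). The cause was not tested. Identity of proteins was not run, and coding sequences stood in for it. Few UMIs per gene and 2 samples per treatment limit all member tests.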
